A study of Bos taurus with 8 samples.

Results

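The comparison described here sets 2 hairpins against the same mRNA side by side: the 3 arrays titled EEF1D-1357 shRNA and the 3 arrays titled EEF1D-1893 shRNA, chosen by their titles, or 6 of the 8 arrays of the series. A short hairpin RNA (shRNA) is processed into a small guide that lowers a matching mRNA by RNA interference. All 8 arrays hold total RNA of bovine mammary epithelial cells (BMECs), primary cells that were grown from mammary tissue of a lactating Holstein cow and used at the fifth passage. The labels give the genotype of both hairpin groups as EEF1D knockdown, with EEF1D-1357 shRNA or EEF1D-1893 shRNA as the treatment, and that of the other 2 arrays as control, without shRNA. No non-targeting hairpin is named in the labels, which also do not give the hairpins' target sites or say whether replicates are separate cultures, so p-values measure the spread between these arrays, which may be technical.

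EEF1D encodes the delta subunit of the eEF1 complex. In each round of elongation eEF1A brings a charged tRNA to the ribosome and leaves bound to GDP, and the guanine nucleotide exchange subunits of the complex, eEF1D among them, return it to the GTP form. Where different hairpins meet the same target, what their profiles share is usually read as the effect of the target, and what differs can come from unequal knockdown, from other mRNAs that one guide matches in its seed, or from the cells and slides themselves.

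Each signal is log2 of the array's processed intensity minus that array's 75th percentile, so 0 is the level that 75% of the probes lie below. Differences are given as EEF1D-1357 minus EEF1D-1893 in log2 units, so that a value above 0 means more signal with EEF1D-1357. The 75th percentile itself lay between 1265 and 2078 intensity units over the 8 arrays, 60.6% to 71.5% of the probes were well above background, and 0 spots were saturated. Hairpin and slide go together: all EEF1D-1357 arrays shared slide 1 with control replicate 2, and all EEF1D-1893 arrays shared slide 2 with the other control, replicate 1. Only that 1 control array per slide links them, so beyond it the effects of slide and hairpin cannot be told apart. Both controls also enter the fit behind each SE, interval and p-value. The distance between controls on different slides is therefore part of that spread, while the replicates of a hairpin share a slide.

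The arrays held epithelial cells by their defining markers. Luminal markers were well above background on all 6 hairpin arrays, among them the keratins KRT8 (7.59 to 7.80) and KRT18 (6.99 to 7.29), the adhesion protein EPCAM (4.36 to 5.24) and E-cadherin, CDH1 (3.70 to 4.15). So were the basal markers KRT5 (6.46 to 6.93), KRT14 (0.20 to 6.41) and TP63 (-4.74 to -3.78). The fibroblast markers COL1A1 (-0.91 to -0.46), COL3A1 (-1.42 to -0.68) and PDGFRA (-5.12 to -3.81) were also measured, PDGFRA on 5 of the 6 arrays. PECAM1, CD3E and ADIPOQ, which define endothelium, T cells and fat cells, passed the filter on dim probes with none of their probes. CDH5, also of endothelium (-8.30 to -3.18), and PLIN1, also of fat cells (-6.23 to -5.59), were each well above background on 2 of the 6 arrays. PTPRC, the leukocyte marker CD45, had a signal of 0.80 to 2.38.

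EEF1D itself is covered by 4 probes, all placed by the files on chromosome 14 of the Btau_3.1 build. Their sequences are shown because they read different stretches of the mRNA. The 5′-most probe, at chr14:931228-931287, and the next, at chr14:934089-934148, are shown whole, each with the ATG codons of an open reading frame in capitals. Of the other 2, at chr14:938160-938333 and chr14:938301-938360, which overlap by 33 bases, the 26 bases up to and including the stop codon tga are shown, with the only base that differs in capitals.
A_73_P265551: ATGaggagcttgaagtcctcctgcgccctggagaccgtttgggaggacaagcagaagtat
A_73_P159712: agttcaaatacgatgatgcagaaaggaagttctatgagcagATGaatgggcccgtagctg
A_73_P279701: acattgctgctttcaacaagaActga
A_73_115715: acattgctgctttcaacaagaTctga
Counted from the 5′ end of A_73_115715, the difference is T22A.

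EEF1D did not differ between the hairpins beyond the spread of the arrays, and of the 2 hairpins EEF1D-1357 had the more spread arrays. The brightest probe, A_73_115715, stood at 5.97, 5.85 and 5.09 in EEF1D-1357 replicates 1 to 3, at 5.99, 5.74 and 5.76 with EEF1D-1893, and at 7.11 and 6.14 in the controls. EEF1D-1357 replicate 3 was the lowest array, and replicates 1 and 2 lay inside the EEF1D-1893 range. The 2 controls lay farther apart than the arrays of either hairpin. The group means were 5.64 ± 0.48 (SD, n = 3) and 5.83 ± 0.14 (SD, n = 3), a difference of -0.19 (SE 0.32, limma adjusted p = 0.888) with a 95% interval of -0.94 to 0.56, which leaves room for a difference of either sign. Without EEF1D-1357 replicate 3 the difference was 0.08, and with slide as a block, which sets each hairpin against the control on its own slide, it was 0.79 (limma adjusted p = 0.369).

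In the other EEF1D probes EEF1D-1357 replicate 3 was again the lowest array. A_73_P279701, which shares the 3′ stretch, stood at 5.59, 5.47 and 4.64 with EEF1D-1357 and at 5.59, 5.41 and 5.56 with EEF1D-1893, a difference of -0.29 (SE 0.31). Further 5′, A_73_P159712 stood at -0.58, -0.71 and -2.08 against -0.09, -0.44 and -0.38, a difference of -0.82 (SE 0.48, limma adjusted p = 0.776). The dim 5′-most probe A_73_P265551 stood at -5.02, -4.95 and -5.39 against -4.65, -4.66 and -4.79, a difference of -0.42 (SE 0.33). In these last 2 probes the 3 arrays of each hairpin did not overlap, though A_73_P265551 was well above background on 2 of 3 EEF1D-1357 arrays. With slide as a block all of these differences turned, to 0.60 for A_73_P279701, 0.50 for A_73_P159712 and 0.93 for A_73_P265551.

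**Figure D1:**
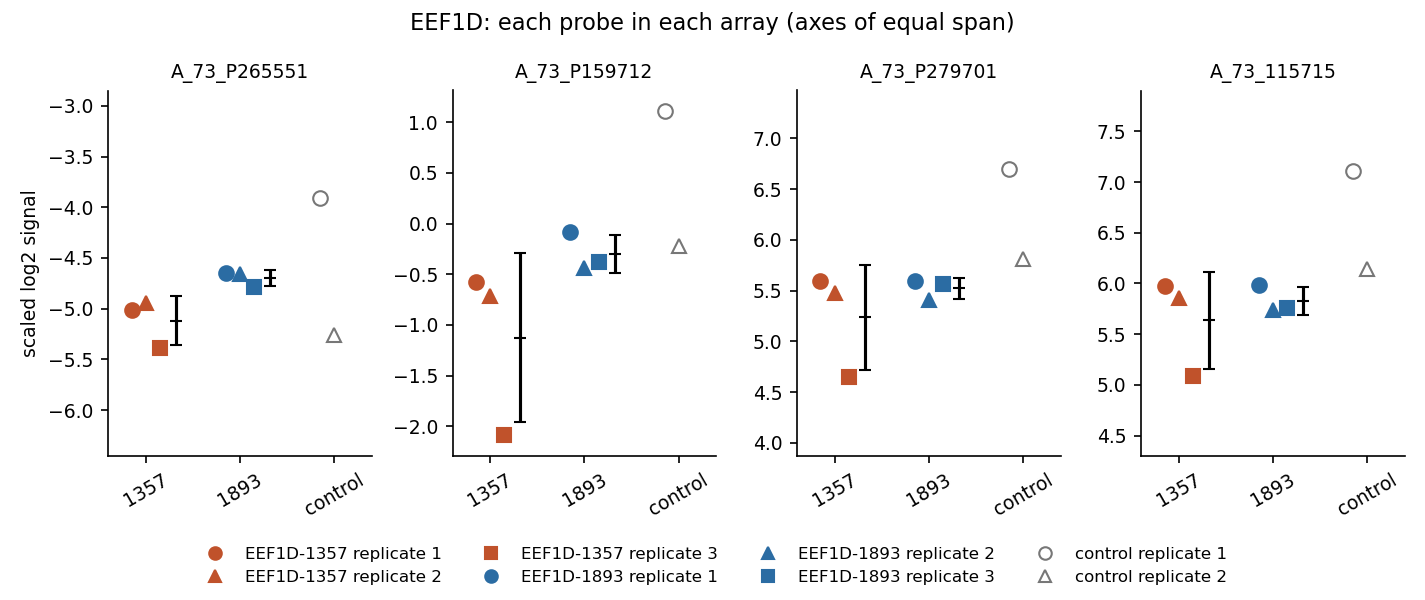
Scaled log2 signal of the 4 EEF1D probes in each array, ordered 5′ to 3′ from left to right, with the mean and SD of each hairpin's 3 arrays as black bars and every vertical axis spanning the same range. EEF1D-1357 replicate 3 is the lowest array in each panel, and control replicate 1 the highest.

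Over all genes the hairpins could not be separated at the adjusted threshold. Of 12740 genes tested with limma, 0 had an adjusted p under 0.05 (0%), the smallest being 0.269, while 817 had an unadjusted p under 0.05: 326 (2.56%) higher with EEF1D-1357 and 491 (3.85%) lower. The 3 arrays of each hairpin did not overlap in 857 genes that were higher with EEF1D-1357 (6.73%) and in 1903 that were lower (14.9%). With 3 arrays against 3, an exact permutation test of a single gene cannot go below p = 0.1. The surplus of lower genes depended on the scaling: 31.1% of the non-overlapping genes were higher with EEF1D-1357 as scaled here, 37.1% after quantile normalization and 51.2% when arrays were scaled by their median, and of the genes at an unadjusted p under 0.05 the shares were 39.9%, 49.0% and 60.0%. It was also uneven over signal, since 21.9% of the genes in the dimmest of 4 equal bins and 11.8% of those in the brightest were lower without overlap. The median difference over all genes was -0.05, and 41.4% of the genes lay above 0.

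Single arrays differed within a hairpin about as much as between hairpins. For a pair of arrays, the spread of their log2 differences (SD over the genes) was 0.50 for EEF1D-1357 replicates 1 and 2, but 0.72 and 0.73 when either was set against replicate 3. The 9 pairs of arrays with different hairpins had SDs of 0.64 to 0.73, and the 3 pairs within EEF1D-1893 had 0.57 to 0.65. EEF1D-1357 replicate 3 was thus nearer to each of the 3 EEF1D-1893 arrays (0.64 to 0.69) than to either array of its own hairpin. It was the array farthest from its group's median in 54.2% of the genes, against 38.2% for EEF1D-1893 replicate 3, the farthest of that group. The 2 controls, on different slides, were 0.83 apart.

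**Figure D2:**
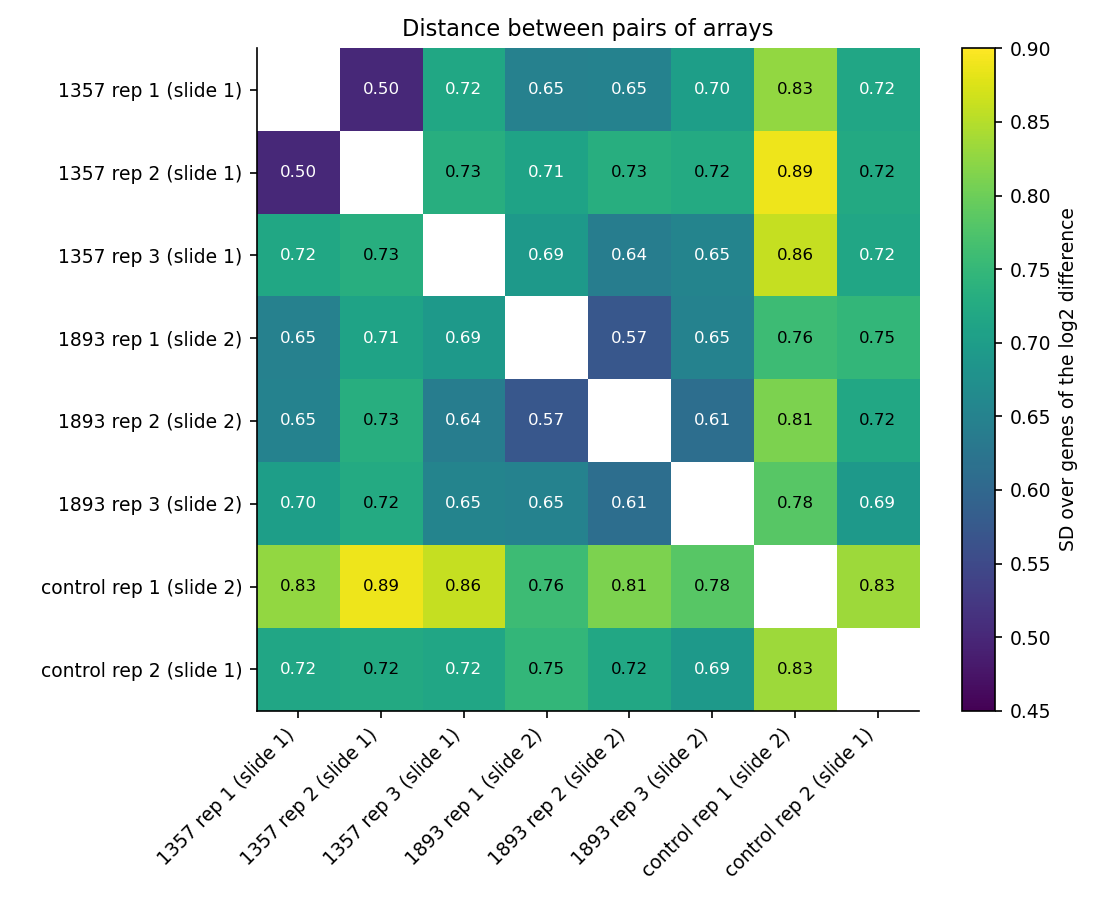
SD over 12740 genes of the log2 difference for every pair of arrays, with the slide of each array in its label (rep, replicate). The pair of EEF1D-1357 replicates 1 and 2 has the lowest value, 0.50, and EEF1D-1357 replicate 3 lies as far from them (0.72 and 0.73) as arrays of the other hairpin do.

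The genes with the smallest p-values on the EEF1D-1357 side included both secreted defence peptides and membrane proteins. The rule for naming took 12 genes in each direction by p among those whose arrays did not overlap. None of the 24 passed the adjusted test (limma adjusted p from 0.269 to 0.746), so the values that follow are descriptions of these arrays. LOC513659, which the array's design calls GBP7, a guanylate-binding protein of the interferon-inducible GTPase family, stood at -2.96, -2.98 and -3.34 with EEF1D-1357 and at -5.82, -5.25 and -5.00 with EEF1D-1893. Both controls, at -4.48 and -4.41, lay between the hairpins. The difference of 2.27 (SE 0.23) is 4.81-fold and had the smallest p of all genes (limma adjusted p = 0.269). The probe was well above background on 2 of 3 EEF1D-1893 arrays. With normexp background correction (offset 50) and quantile normalization together, below called normexp, the difference was 1.24.

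The largest difference among the 24 was that of EBD, enteric beta-defensin, an antimicrobial peptide that opens bacterial membranes. It stood at -0.14, 0.66 and 0.94 with EEF1D-1357 and at -4.30, -3.48 and -2.34 with EEF1D-1893, a 14.5-fold difference (3.86, SE 0.50, limma adjusted p = 0.402). The controls, at 0.37 and 0.17, lay among the EEF1D-1357 arrays, so it was the EEF1D-1893 arrays that stood low. DEFB7, a beta-defensin from the same stretch of chromosome 27, showed the reverse: -1.71, -1.59 and -1.89 with EEF1D-1357 against -4.17, -5.95 and -4.66, with the controls at -3.75 and -4.48. There the EEF1D-1357 arrays stood apart, by 9.17-fold (limma adjusted p = 0.420). The probe was well above background on 2 of 3 EEF1D-1893 arrays, and with normexp the DEFB7 difference was 2.17.

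Beta-defensin genes are near copies of each other, so the probes behind these values are shown with the bases that tell them apart. Bovine beta-defensins are short peptides held by cysteine bridges, and the first pair lies in the coding part, with cysteine codons in capitals: DEFB7 at chr27:7372838-7372897 (minus strand, whole probe) and EBD at chr27:7569269-7569328 (plus strand, the first 40 bases, up to the stop codon taa). The second pair are 30 bases of overlapping EBD probes beyond that codon, at chr27:7569343-7569402 and chr27:7569347-7569406, with the bases that differ in capitals.
DEFB7 A_73_119995: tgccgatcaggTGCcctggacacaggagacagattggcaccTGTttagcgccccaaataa
EBD A_73_120710: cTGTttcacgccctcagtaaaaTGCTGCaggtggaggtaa
EBD A_73_P100726: gaaactgcgGccttcgacagaaAgtctaaa
EBD A_73_P054346: gaaactgcgCccttcgacagaaCgtctaaa
Counted within the printed bases of A_73_P100726, the differences from A_73_P054346 are G10C and A23C.

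Probes named EBD fell into pairs that did not behave alike. A_73_120710 followed the brightest probe, A_73_P100726, with -0.39, 0.40 and 0.72 against -4.41, -3.29 and -2.53. A_73_P054346, which differs from that brightest probe at the bases above, stood at -1.92, -1.55 and -3.15 with EEF1D-1357 and at -2.97, -5.50 and -4.33 with EEF1D-1893, and its arrays overlapped. This probe shares an unbroken run of 52 bases with a DEFB7 probe, A_73_P041156, which stood at -2.96, -2.42 and -4.03 against -3.16, -5.63 and -4.66. Signals of these 2 probes therefore cannot be assigned to one gene. The brightest EBD probe, A_73_P100726, also shares an unbroken run with A_73_P041156, of 33 bases, while A_73_120710 shares at most 6 with it. The coding DEFB7 probe A_73_119995 shares at most 8 bases in a row with any EBD probe.

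Other beta-defensins were chosen after their values were seen, for their likeness to EBD and DEFB7. Lingual antimicrobial peptide, LAP, stood at -0.49, 0.61 and -4.53 with EEF1D-1357 and at -3.55, -6.62 and -2.31 with EEF1D-1893. Replicates 1 and 2 of EEF1D-1357 were thus high and replicate 3 was not. Tracheal antimicrobial peptide, TAP, stood at -3.36, -2.07 and -5.57 against -4.91, -6.35 and -3.10, again with EEF1D-1357 replicate 2 as the highest array. DEFB4A was highest in EEF1D-1357 replicate 3, with -5.55, -4.95 and -3.54 against -6.01, -6.46 and -5.56. Its arrays did not overlap, but the nearest of them were almost equal, at -5.548 and -5.559. The probe was well above background on 1 of 3 EEF1D-1893 arrays. DEFB10 stood at -1.68, -1.46 and -2.42 against -1.97, -4.18 and -4.00, and its arrays overlapped.

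**Figure D3:**
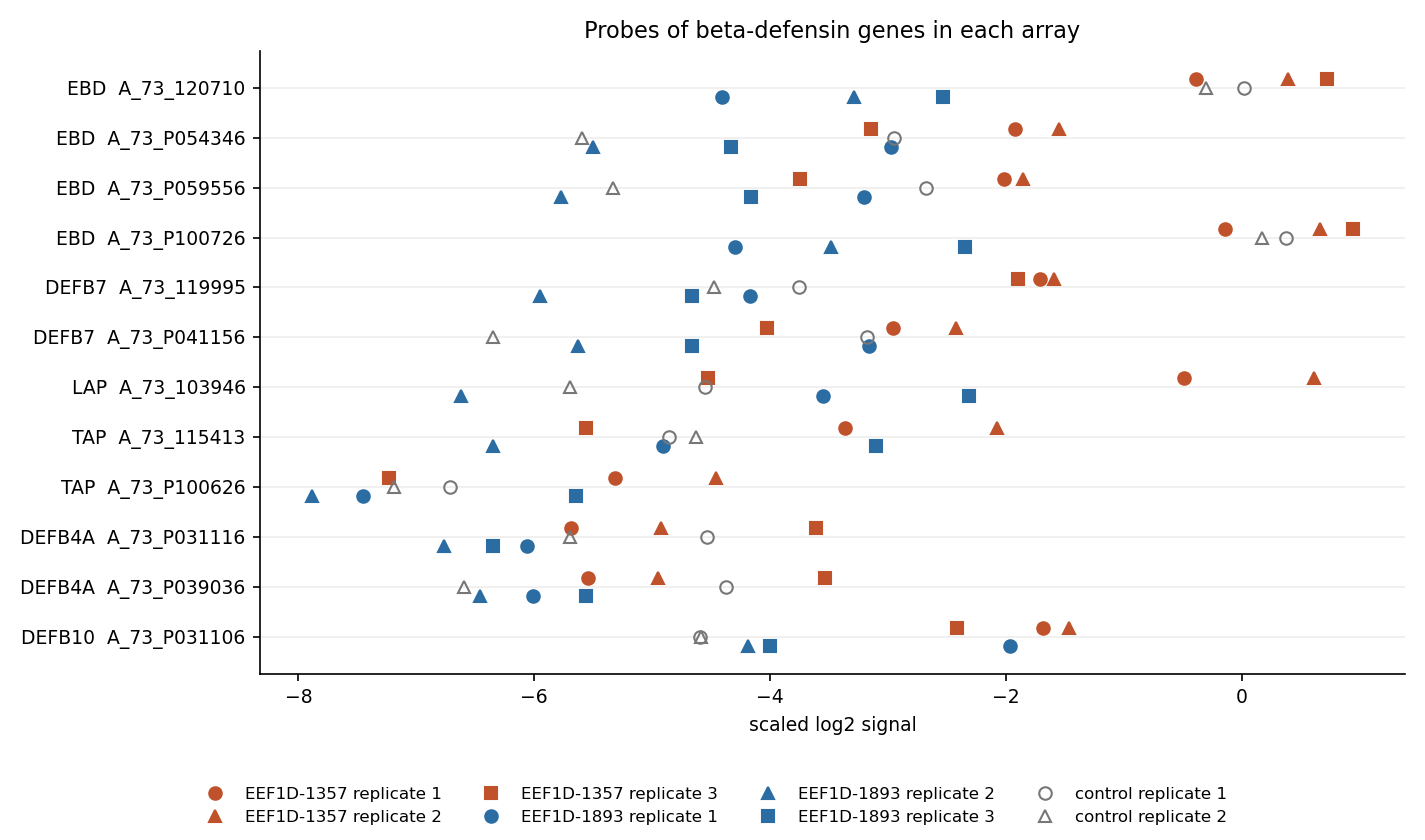
Scaled log2 signal of the beta-defensin probes that were well above background on at least 2 hairpin arrays, one row a probe, with EEF1D-1357 in orange, EEF1D-1893 in blue and controls as open grey symbols. The EBD probes A_73_120710 and A_73_P100726 have low EEF1D-1893 arrays, DEFB7 A_73_119995 has high EEF1D-1357 arrays, and in LAP and TAP EEF1D-1357 replicate 3 lies below replicates 1 and 2.

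The remaining genes on the EEF1D-1357 side spanned differences of 0.69 to 2.91. HMGB3, a chromatin protein of the high mobility group, stood at 0.10, -0.16 and -0.22 against -1.52, -1.08 and -1.39 (1.24, SE 0.17, limma adjusted p = 0.402), with both controls near the EEF1D-1893 arrays at -1.18 and -1.01. ENPP3, an ectonucleotidase of the cell surface, stood at 0.45, 0.57 and -0.14 against -1.53, -3.16 and -3.15, or 7.50-fold. The semaphorin SEMA6D, a guidance receptor and ligand, stood at -1.78, -2.19 and -1.91 against -3.94, -5.38 and -4.29, or 5.98-fold (a log2 difference of 1.84 with normexp). In ENPP3 both controls (-1.01 and -0.89) were nearer to the EEF1D-1357 mean, and in SEMA6D (-4.57 and -3.14) they were split.

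Smaller differences completed that side. MISP, an actin-bundling protein that helps to position the mitotic spindle, differed by 1.78 (SE 0.34). PLPP3, a lipid phosphate phosphatase, differed by 1.48 (SE 0.29) and FAM20A, a secretory pathway pseudokinase, by 1.41 (SE 0.28). IGSF9, an adhesion protein of the immunoglobulin superfamily, the amine oxidase AOC3 and the cation channel TRPM4 differed by 0.81, 0.77 and 0.69. In IGSF9 and MISP both controls were nearer to the EEF1D-1357 mean, and in AOC3 nearer to the EEF1D-1893 mean.

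On the EEF1D-1893 side, ADAM19, a membrane-bound metalloprotease that sheds growth factors such as neuregulin, had the smallest p. It stood at -4.72, -4.38 and -4.54 with EEF1D-1357 and at -2.92, -2.58 and -3.30 with EEF1D-1893, and was 3.07-fold higher with EEF1D-1893 (-1.62, SE 0.21, limma adjusted p = 0.402), with -0.93 under normexp. Both controls, at -3.22 and -3.47, were close to the EEF1D-1893 arrays. LTC4S, which makes the inflammatory lipid leukotriene C4, stood at 0.87, 0.97 and 0.38 against 1.55, 2.98 and 2.83, or 3.28-fold. CCDC8, a scaffold protein of the 3M growth complex, stood at -3.21, -3.20 and -2.67 against -2.15, -1.25 and -0.92. Among the controls LTC4S (1.25 and 1.28) was nearer to EEF1D-1357, and CCDC8 (-1.82 and -2.28) was split.

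The basement membrane protein nidogen 2, NID2, stood at -2.43, -2.36 and -2.49 with EEF1D-1357 and at -1.44, -1.59 and -1.67 with EEF1D-1893 (-0.86, SE 0.17). Both controls, at -3.17 and -2.59, were lower than all 6 hairpin arrays. SOAT2, which esterifies cholesterol, also had both controls (-4.58 and -4.45) below all hairpin arrays, with -3.61, -3.70 and -4.43 against -2.81, -2.74 and -3.04. HEYL, a transcription factor of the Notch pathway, differed by -1.37 (SE 0.31) and WTIP, a LIM protein of cell junctions, by -1.01 (SE 0.20). The amino acid transporter SLC7A6, the folate carrier SLC19A1, the Polycomb ubiquitin ligase RNF2, the MYC partner CDCA7L and the thyroid hormone binding protein CRYM had differences of -0.74, -0.56, -0.61, -0.81 and -0.57. Of the 4 SLC7A6 probes that passed the filter 3 were lower with EEF1D-1357.

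Set against the controls, the 24 genes had no common side. Both controls were nearer to the EEF1D-1357 mean in 8 genes, nearer to the EEF1D-1893 mean in 8 and split in 8. With slide as a block all 24 kept their direction, with 4.06 for EBD, 3.92 for DEFB7, 2.20 for LOC513659, -1.37 for ADAM19 and -0.30 for CDCA7L. That value rests on 1 control array per slide.

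**Figure D4:**
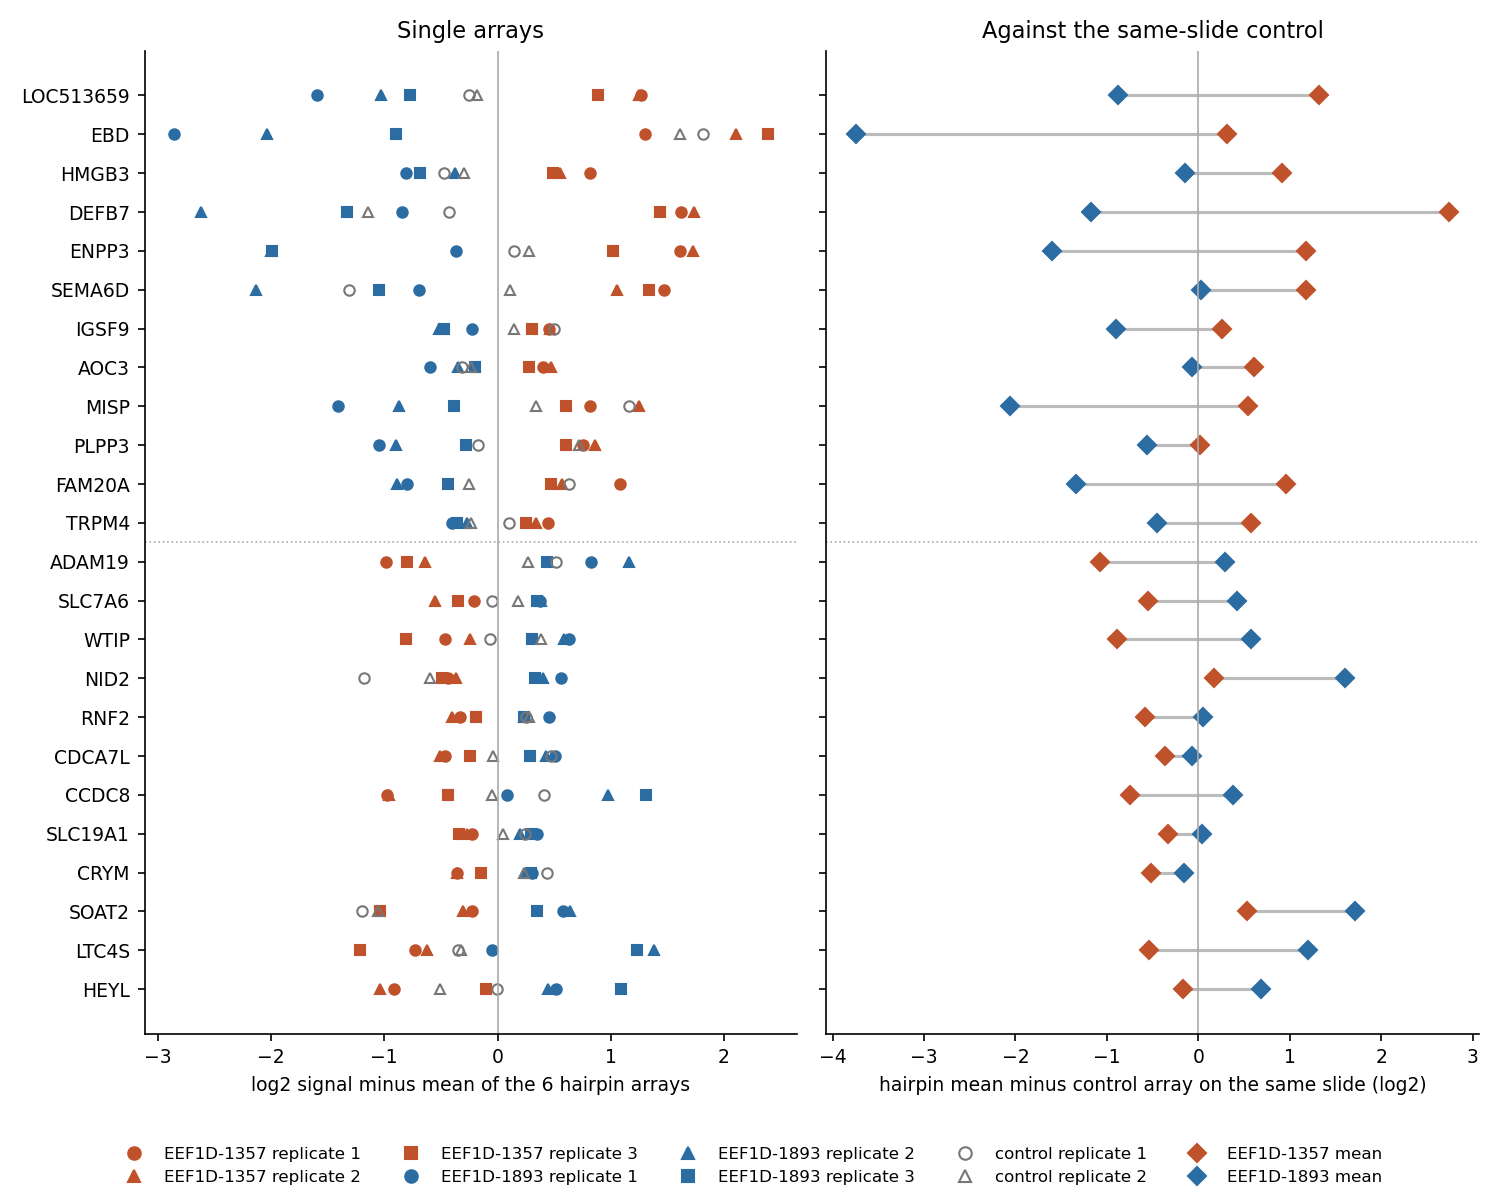
Left, the 24 named genes in each array, as log2 signal minus the mean of the 6 hairpin arrays, with controls as open symbols; right, each hairpin's mean minus the control array on the same slide. The hairpins do not overlap on the left by the rule that chose the genes; on the right EBD lies farthest from 0 with EEF1D-1893 (-3.75) and DEFB7 with EEF1D-1357 (2.74).

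A few genes were at background with one hairpin. IL32, an inflammatory cytokine, was well above background on all 3 EEF1D-1357 arrays (-4.08, -2.06 and -4.53) and on none with EEF1D-1893, which makes it at least 3.87-fold higher with EEF1D-1357. The fucosyltransferase FUT6, at -5.42, -4.12 and -2.89, was at least 2.74-fold higher. In the other direction the synaptic scaffold GRIP2 was at least 3.05-fold, the zinc finger protein ZSCAN26 at least 2.90-fold, the monocarboxylate transporter SLC5A8 at least 2.31-fold and FAM184A at least 2.00-fold higher with EEF1D-1893. These bounds take, for the dim arrays, the probe's own value or the array's lowest well-above-background signal, whichever was higher, and limma's adjusted p was 0.746 for each. They hold only for the signals as scaled here. With normexp the log2 differences were smaller than the bounds, at 1.17 for IL32 and 1.18 for FUT6. In the other direction they were -1.16 for GRIP2, -1.01 for ZSCAN26, -0.74 for SLC5A8 and -0.58 for FAM184A.

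Inflammatory genes were mostly higher with EEF1D-1357 in their means. Chemokines, which draw leukocytes, and inflammatory cytokines had a median difference of 0.67 over 31 measured genes, with 23 above 0, where the median over all genes was -0.05. Higher at an unadjusted p under 0.05 were 9 of the 31 (2.56% of all genes) and non-overlapping on the higher side 8 (6.73% of all genes), with 0 passing the adjusted test (limma) and 2 lower at p under 0.05. Array by array the list's median stood at 0.36, 0.51 and -0.05 with EEF1D-1357 and at -0.33, -0.54 and 0.17 with EEF1D-1893, each measured from the mean of the 6 arrays. EEF1D-1357 replicate 3 thus lay below the third array of the other hairpin, and the controls (-0.33 and -0.41) were with the lower EEF1D-1893 arrays.

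Of its members, IL18, a cytokine released by the inflammasome, stood at 3.33, 3.18 and 2.77 against 2.53, 1.64 and 1.71 (1.14, SE 0.29, limma adjusted p = 0.746). GRO1, a neutrophil chemokine, stood at 0.58, 0.55 and 0.45 against -0.04, -0.39 and 0.12 (0.63, SE 0.16). TNF stood at -3.58, -2.55 and -4.06 against -7.36, -6.75 and -4.22, and was well above background on 1 EEF1D-1893 array only. CXCL5, another neutrophil chemokine, differed by 1.50 (SE 0.47). Leukocyte markers had a median difference of -0.20 over 17 measured genes, with 1 gene non-overlapping on the higher side (6.73% of all genes) and 4 on the lower (14.9% of all genes). This median turned to 0.68 with slide as a block. Of the 17 genes 11 were below 0 and 6 above, among the latter PTPRC (0.70, SE 0.37) and AIF1 (0.84, SE 0.31).

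Antimicrobial and milk defence proteins had the largest median among the 38 lists, 0.89, with 15 of 19 measured members above 0. Without overlap 4 were higher (6.73% of all genes) and 2 lower (14.9% of all genes), and 3 were higher at an unadjusted p under 0.05 (2.56% of all genes; limma, 0 after adjustment). The list's array medians were 0.61, 1.34 and -0.19 with EEF1D-1357 and -0.84, -1.13 and 0.13 with EEF1D-1893, so that the third arrays of the hairpins lay in reverse order to the others. Without EEF1D-1357 replicate 3 the median was 1.70, and over the 20 alternatives of the processing it ranged from 0.32 to 1.77. Of the 19 members 10 were well above background on all 6 hairpin arrays. MUC1, the mucin of the milk fat globule, stood at 2.91, 3.68 and 3.40 against 1.31, 1.22 and 1.54 (1.98, SE 0.65), with the controls at 2.86 and -0.00. The calcium-binding S100A9, at -3.12, -0.86 and -4.93 against -6.33, -6.43 and -3.39, was also highest in EEF1D-1357 replicate 2. EBD is not a member of this list.

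NF-kB pathway genes and targets had a median of 0.14, with 26 of 32 above 0 (41.4% of all genes) and 7 higher without overlap (6.73% of all genes). Lymphotoxin beta, LTB, stood at 1.08, 1.35 and 0.99 against 0.09, 0.37 and 0.78 (0.73, SE 0.20), TLR4, the receptor for bacterial lipopolysaccharide, differed by 0.41 (SE 0.18) and the kinase IKBKE by 0.41 (SE 0.18). Of the 3 TLR4 probes that passed the filter 2 were higher, and with slide as a block the TLR4 difference was 0.0054. TNFAIP3, the A20 protein that feeds back on the pathway, went the other way, at -4.24, -3.78 and -3.42 against -2.88, -3.24 and -3.18 (-0.72, SE 0.22). Genes stimulated by interferon and sensors of double-stranded RNA, which can answer to introduced RNA, had a median of 0.17, with 34 of 45 above 0 and 3 higher without overlap, a share near the 6.73% of all genes. In IFIT2 and IFIT3, which bind foreign RNA, EEF1D-1357 replicates 1 and 2 stood out alone: IFIT2 was at -2.32, -3.15 and -5.57 against -4.76, -5.58 and -5.55, with controls at -4.69 and -4.26. IFIT3 was at -4.11, -4.75 and -7.24 against -6.72, -7.42 and -7.12, and well above background in those 2 hairpin arrays only. CMPK2 differed by 0.50 (SE 0.17) without overlap and IRF1 by 0.67 (SE 0.29). The interferon list's median was 0.46 without EEF1D-1357 replicate 3 and 0.038 with slide as a block.

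Metalloproteases, which cut the extracellular matrix and shed surface proteins, had a median of 0.38, with 18 of 23 above 0 (41.4% of all genes), 7 higher without overlap (6.73% of all genes) and 3 lower (14.9% of all genes). MMP11, stromelysin 3, stood at -1.06, -1.30 and -1.81 against -2.28, -2.36 and -2.43 (0.97, SE 0.21). The collagenase MMP1 stood at 3.59, 4.06 and 4.23 against 2.55, 3.02 and 3.41 (0.97, SE 0.30), and the aggrecanase ADAMTS5 at -1.75, -2.12 and -3.81 against -4.08, -4.08 and -4.19 (1.55, SE 0.50). ADAM19, described above, is the member that lay farthest on the EEF1D-1893 side by p. TGF-beta targets and matrix genes had a median of -0.22, with 25 of 31 below 0 and 9 lower without overlap (14.9% of all genes), among them SKIL, a repressor of SMAD proteins (-0.41, SE 0.13). With slide as a block this median turned to 0.20. TGFBI stood at 1.85, 0.58 and 2.86 against 3.27, 2.73 and 3.55, and FBN1, fibrillin 1, differed by 0.89 (SE 0.33). COL1A2, a chain of type I collagen, was not well above background on any EEF1D-1357 array (-6.88, -7.26 and -6.65). It was well above background on 2 of 3 with EEF1D-1893 (-6.79, -1.78 and 0.82).

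Mitosis genes, which build the spindle and kinetochores, were all on one side in their means but not in their arrays. The median difference was -0.80, and 65 of 65 members were below 0. Yet 1 of 65 had arrays that did not overlap (14.9% of all genes on that side). At an unadjusted p under 0.05 (limma) 1 was lower (3.85% of all genes). The array medians were -1.14, -0.62 and 0.58 with EEF1D-1357 against 0.13, 0.03 and 0.97 with EEF1D-1893, and 0.86 and 0.59 in the controls. EEF1D-1357 replicate 3 lay above 2 of the EEF1D-1893 arrays, and the highest of the 6 was EEF1D-1893 replicate 3. SPC24, a kinetochore subunit, stood at 2.14, 2.38 and 3.77 against 3.67, 3.36 and 4.42, cyclin B2, CCNB2, at -1.83, -1.36 and -0.13 against -0.06, -0.63 and 0.43, and the kinase NEK2 at -5.33, -5.12 and -4.35 against -4.35, -4.53 and -3.63. CENPH differed by -0.75 (SE 0.29). In total RNA of a culture, fewer cells in division and less of these mRNAs per cell cannot be told apart.

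DNA replication genes had the same order of arrays with a smaller range. The median was -0.46, with 52 of 55 below 0, 4 lower at an unadjusted p under 0.05 (limma; 3.85% of all genes) and 3 lower without overlap (14.9% of all genes). The array medians were -0.59, -0.39 and 0.32 against 0.19, -0.03 and 0.58, and with slide as a block the median was -0.06. RPA2, a subunit of the single-strand binding complex, differed by -0.59 (SE 0.23), the helicase subunit MCM6 by -0.55 (SE 0.22) and the licensing factor CDC6, well above background on 1 of the EEF1D-1357 arrays, by -0.90 (SE 0.36). The primase subunit PRIM1 was well above background on 0 of the EEF1D-1357 arrays and all 3 with EEF1D-1893. As scaled here this makes it at least 1.65-fold higher with EEF1D-1893. Its log2 difference was smaller than that bound with normexp (-0.24) and with slide as a block (-0.04).

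**Figure D5:**
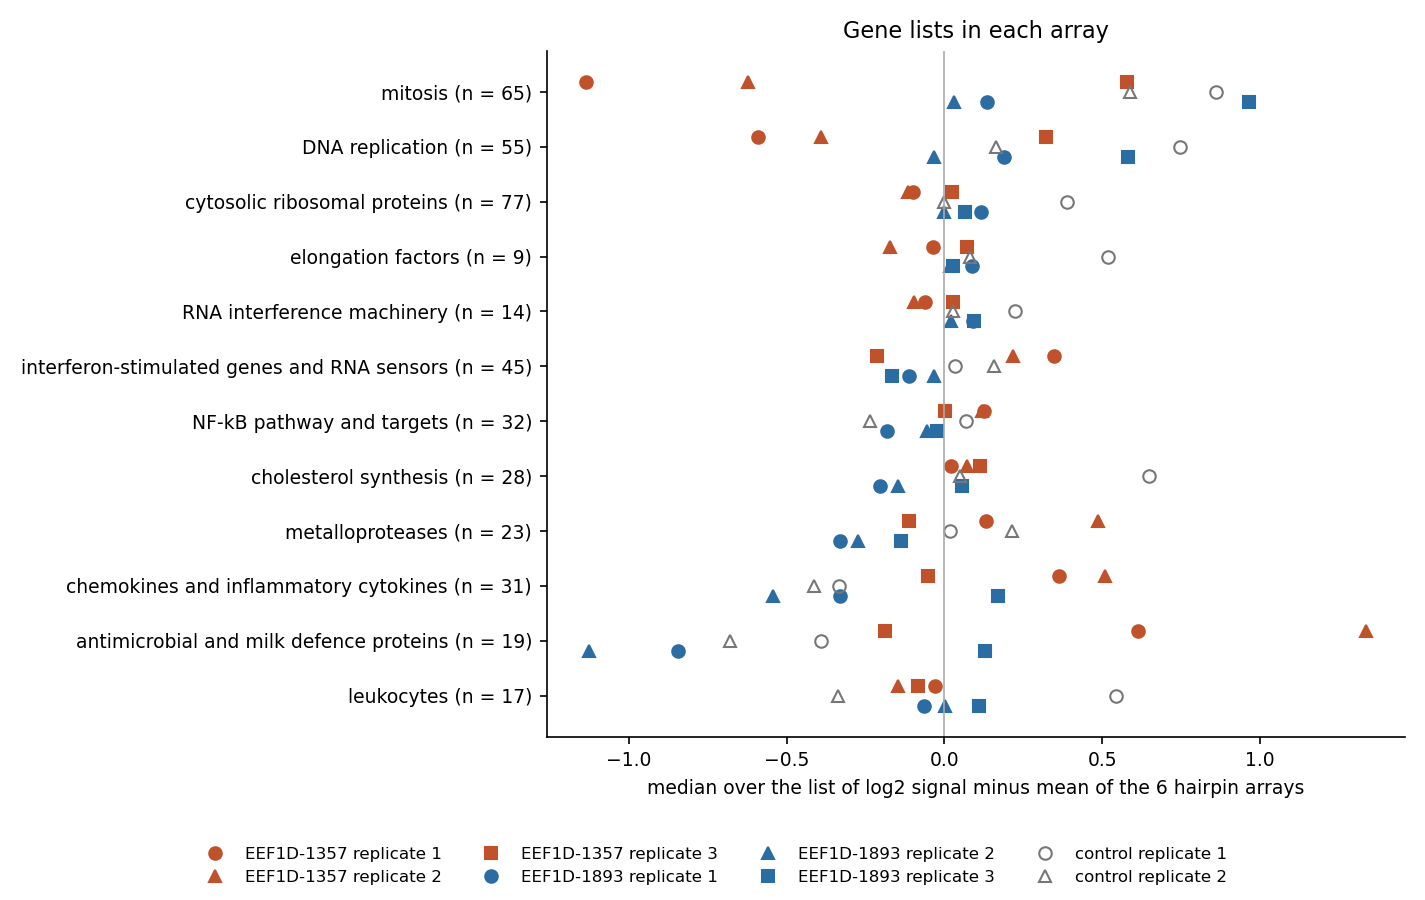
Median over each gene list of log2 signal minus the mean of the 6 hairpin arrays, one point an array, with the number of measured genes in the label. In mitosis genes EEF1D-1357 replicate 3 (0.58) sits above EEF1D-1893 replicates 1 and 2 (0.13 and 0.03), and in chemokines it (-0.05) sits below EEF1D-1893 replicate 3 (0.17).

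The translation machinery around the target differed little. Of 9 measured elongation factors 8 were below 0, EEF1D included, and 1 above (41.4% of all genes), with a median of -0.15. Without overlap there were 0, against 6.73% of all genes on the higher side and 14.9% on the lower. EEF1A1, the GTPase that eEF1D recharges, stood at 7.29, 7.37 and 7.51 against 7.53, 7.52 and 7.42 (-0.10, SE 0.12, limma adjusted p = 0.839). EEF1B2, the other exchange subunit, stood at 6.29, 6.26 and 6.46 against 6.63, 6.42 and 6.52 (-0.19, SE 0.14) and EEF1E1, a scaffold of tRNA synthetases, differed by -0.27 (SE 0.17). EEF2K, the kinase that inhibits elongation factor 2, differed by -0.32 (SE 0.19). Cytosolic ribosomal protein genes were below 0 in 76 of 77 cases, with a median of -0.13 and 19 lower without overlap (14.9% of all genes), and RPS29 (-0.25, SE 0.11), RPL13 (-0.24, SE 0.14), RPL39 (-0.21, SE 0.13) and RPS23 (-0.31, SE 0.19) had the smallest p-values. These shifts turned with slide as a block, to 0.22 for elongation factors and 0.23 for ribosomal proteins, and the latter was -0.03 after quantile normalization.

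The machinery that processes hairpins was measured as well. Of 14 genes of RNA interference 10 were below 0 and 4 above (41.4% of all genes), with a median of -0.16. Without overlap 2 were higher and 2 lower, the latter a share near the 14.9% of all genes (6.73% on the higher side). DICER1, which cuts the hairpin, stood at -0.36, -0.46 and -0.40 against -0.34, -0.20 and -0.01 (-0.22, SE 0.13). Of its 2 probes that passed the filter, the other differed in the opposite direction. DROSHA, which acts before DICER1 in the nucleus, differed by -0.21 (SE 0.13), DICER1's partner TARBP2 by -0.18 (SE 0.15) and the export GTPase RAN by -0.26 (SE 0.14). Of the 14 genes 0 had an unadjusted p under 0.05 (limma), against 2.56% of all genes on the higher side and 3.85% on the lower.

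Lipid and milk genes were measured as 3 lists. Cholesterol synthesis had a median of 0.11, with 21 of 28 above 0 (41.4% of all genes) and 6 higher without overlap (6.73% of all genes), and the median was 0.73 with slide as a block. Lanosterol synthase, LSS, stood at -0.36, -0.26 and -0.32 against -1.04, -0.86 and -0.84 (0.60, SE 0.18), and MSMO1, INSIG1 and TM7SF2 differed by 0.35, 0.54 and 1.16. In fatty acid and triglyceride synthesis 24 of 41 were above 0. ACSS2, which makes acetyl-CoA from acetate, stood at -0.15, -0.23 and -0.10 against -0.83, -0.63 and -1.02 (0.67, SE 0.14, limma adjusted p = 0.746), the fatty acid binding protein FABP5 at -0.63, 0.14 and -1.68 against 0.81, 1.01 and 0.27 (-1.42, SE 0.51), and the transporter SLC27A3 differed by -0.47 (SE 0.16). THRSP, a regulator of milk fat synthesis, was well above background on 1 hairpin array, EEF1D-1357 replicate 3 (-2.68).

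Of 7 measured milk protein genes 5 were above 0. MFGE8, the milk fat globule protein lactadherin, stood at -0.43, -0.25 and -0.07 against -0.92, -0.49 and -0.56, and lactoperoxidase, LPO, differed by -0.46 (SE 0.25). Kappa-casein, CSN3, was well above background in EEF1D-1357 replicate 2 alone (-0.48), with -6.52 and -5.36 in the other arrays of that hairpin. Chaperones of the endoplasmic reticulum had a median of -0.07, with 22 of 32 below 0, and a median of 0.0051 with slide as a block. EDEM2, which directs misfolded glycoproteins to degradation, stood at 4.20, 4.17 and 4.17 against 3.86, 3.63 and 3.53 (0.51, SE 0.14), and DERL3 differed by 0.47 (SE 0.17). HSPA5, the chaperone BiP, stood at 5.27, 5.25 and 5.84 against 5.79, 5.96 and 6.01, and DNAJB11 differed by -0.34 (SE 0.14).

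Within each hairpin some bright genes ranged over several log2 units between replicates, and the probes tell whether one spot or the whole gene was involved. UCHL1, a ubiquitin hydrolase, stood at 3.18, 1.05 and -3.02 with EEF1D-1357, and its other 2 probes had the same order, with -0.90, -2.96 and -7.24 in A_73_112969. TPM2, a tropomyosin, stood at -2.39, -3.99 and 1.04, again with EEF1D-1357 replicate 3 apart, and was likewise high in EEF1D-1893 replicate 3 (-1.70, -2.97 and 1.24). FOXA2 stood at -4.58, 0.29 and -4.18 in one probe, while A_73_P073876 stood at -4.84, -5.38 and -5.03, so that the second array was high in only one of them.

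With EEF1D-1893, replicate 2 was the low array in 3 such genes. LOXL4, a lysyl oxidase that crosslinks collagen, stood at 2.46, -4.26 and 1.67. CTHRC1, a secreted collagen triple helix repeat protein, stood at 5.59, 0.50 and 4.53, and its second probe, A_73_107090, at 3.98, -1.33 and 2.85. KRT14, the basal keratin, stood at 1.96, 0.20 and 6.41 in its brightest probe but at 3.47, 3.04 and 4.59 in A_73_P309126, the same order over a smaller range. With EEF1D-1357 these KRT14 probes had reverse orders, at 5.25, 5.07 and 3.22 in the brightest and 3.30, 3.71 and 4.39 in A_73_P309126.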

How the data were processed

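Arrays were scanned and read with Agilent Feature Extraction, version 10.7.3.1 per the file headers and 9.1 per the submitters' processing notes. The deposited processed intensity of each spot is background-subtracted by that software, per the file headers. A deposited table of log2 values was used as an alternative only: its columns correlated with the scanner values at r of 0.9979 to 0.9999, each with a median of 7.55, and how they were centred is not given in the sources used here.

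Of 43653 probes that are not controls, 238 with an outlier mark on any array were left out. Each array's log2 intensity was set relative to its 75th percentile. A probe was kept where at least 2 of the 8 arrays had it well above background, and each gene took its brightest probe, which gave 12740 genes, 7471 of them with several probes. Names came from the files and from RefSeq (ARS-UCD2.0), matched by accession, gene ID or symbol, and 8698 probes had none; coordinates are those of the files (Btau_3.1). limma 3.58.1 in R 4.3.3 fitted 3 group means to all 8 arrays, with Benjamini-Hochberg adjustment over all genes and a threshold of 0.05; the number of arrays limits the precision (5 residual degrees of freedom). The fitting code was tested on simulated data.

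The genes named were EEF1D, up to 12 genes per direction (called genes by size, then by p) among genes whose arrays did not overlap and that were well above background on at least 5 hairpin arrays, up to 4 genes of each list by p, up to 4 per direction at background with one hairpin, and up to 3 per hairpin with the widest range over its arrays. Members and lists were chosen with earlier results of these data known. Alternatives were the background correction, normalization, dim-probe filter, probe rule, deposited table, arrays in the fit, prior, array weights, replicate block, slide as a block and each array left out.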

Additional observations from a re-analysis of the deposited data

Results flagged for a closer look

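In 6 genes the step from the control to the hairpin differed between the slides, by limma with slide as a block and Benjamini-Hochberg adjustment. The difference was -3.78 for GUCA2A (adjusted p = 0.0206), -2.47 for HTR1B (0.0210), 2.42 for KCNG1 (0.0227), -2.53 for KIRREL2 (0.0449), 2.94 for SELENOW (0.0206) and -3.06 for STOML1 (0.0206). In all 6 genes the 2 control arrays lay farther apart than the hairpin means, though in GUCA2A the hairpin arrays were apart as well, at signals near background. HTR1B, a serotonin receptor, stood at -2.41 and -0.12 in control replicates 1 and 2, KCNG1, a potassium channel subunit, at -4.32 and -7.16, and KIRREL2, an adhesion protein, at -3.05 and -0.82. SELENOW, a selenoprotein, stood at 4.44 and 1.53 and STOML1 at -3.42 and -0.56. Without the block these genes differed between the hairpins by -0.17, -0.42, -0.30, 0.03 and -0.20. GUCA2A, the peptide guanylin, stood at -7.38, -7.49 and -7.27 with EEF1D-1357, at -6.07, -5.92 and -5.85 with EEF1D-1893 and at -5.82 and -3.47 in the controls. Its EEF1D-1357 values lay below those of SLC5A8 (-6.14, -5.96 and -5.74), which was at background on these arrays. With EEF1D-1893 they were near those of IL32 (-6.22, -5.52 and -5.72), also at background there. KCNG1 in control replicate 2 lay below IFIT3 (-6.06), which was not well above background in that array. Each slide holds 1 control array, so the spread of controls within a slide was not measured.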

How the results depend on the processing

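With limma, 0 genes passed the adjusted test as reported, 1 with normexp background correction and quantile normalization (DEFB7, 2.17, adjusted p = 0.0489), 13 with array weights (adjusted p from 0.0389 to 0.0499) and 6 with slide as a block. Leaving out 1 array gave 0 to 1, the 1 being CCDC172 without EEF1D-1893 replicate 3 (-5.21, adjusted p = 0.0458). The genes at an unadjusted p under 0.05 numbered 817 as reported, 1779 with the 6 hairpin arrays alone, 4071 with array weights, 3338 with slide as a block, and 333 to 1785 with 1 array left out: 463 without EEF1D-1357 replicate 1, 333 without replicate 2, 1428 without replicate 3, and 1731 and 1785 without control replicates 1 and 2. The array weights of the controls were 0.240 each, against 6.41 for EEF1D-1357 replicate 2.

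The EEF1D difference became 0.79 with slide as a block and ranged from -0.36 to 0.084 with 1 array left out. With slide as a block KRT14 turned to -0.42, UCHL1 to 1.31, EEF2K to 0.22, EEF1E1 to 0.086, EEF1B2 to 0.078, EEF1A1 to 0.034, RPS23 to 0.072, TARBP2 to 0.18 and LPO to 0.39. UCHL1 was 0.029 with normexp and 0.86 with array weights, and EEF1A1 was 0.0029 with normexp, 0.013 after quantile normalization and 0.017 in the deposited table. With 1 array left out UCHL1 ranged from -1.50 to 1.60, TPM2 from -2.04 to 0.56, FOXA2 from -0.16 to 2.27 and LOXL4 from -0.0071 to 3.36. The cause of these turns was not tested. Of 1896 values for 96 genes, 1866 kept their direction without a call, and 277 of 300 list medians moved by less than the spread. A replicate block gave 0 calls and 1110 genes at an unadjusted p under 0.05; deviations of same-numbered arrays correlated at 0.10, -0.11 and 0.07, so the numbers were not taken as pairs.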
